A study of Mus musculus with 12 samples.

Results

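LIN28A and LIN28B are RNA-binding proteins of early embryos and pluripotent cells. They bind the terminal loop of the let-7 precursors, at a GGAG motif. LIN28A recruits terminal uridylyl transferases such as TUT4, so that the precursor is tailed and then degraded by the exonuclease DIS3L2. Mature let-7 in turn represses the mRNAs of both Lin28 genes and of a set of growth-promoting embryonic genes, among them Trim71, Hmga2 and the Igf2bp family, and the opposition between LIN28 and let-7 is one of the timers of early development. In mouse embryonic stem cells (ESCs) Lin28a is known as a gene that rises as the naive state gives way to the post-implantation-like state.

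The 7 genes described here are the pair Lin28a and Lin28b and 5 let-7 regulated oncofetal genes, Trim71, Hmga2, Igf2bp1, Igf2bp2 and Igf2bp3, of 35580 genes that the deposited transcript estimates could be summed to. Lin28a was selected on measured values, its level difference between the genotypes having changed with time, and Lin28b was chosen by its place in a stretch of chromosome 10 that was lower in the knockout, so the genotype differences of these 2 genes are given as values with no test. The other 5 were named for their biology. All 7 were measured in every library and passed the filter on low counts, with 588 to 1945 estimated counts per library for Lin28b, the least abundant, and 12964 to 25767 for Igf2bp1, the most counted.

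RNA-seq compared wild-type (WT) R1 mouse ESCs with a CIDEA knockout (CIDEA KO, Cidea -/-), in which CRISPR-Cas9 had removed the entire Cidea locus, a gene of lipid droplet enlargement. ESCs were taken at 0 h, when they grew with serum and leukaemia inhibitory factor (LIF). Spheroids were taken at 24 h and 48 h after LIF was withdrawn and the cells were moved to growth factor-reduced Matrigel. For molecular experiments the paper describes seeding on a Matrigel coat, then medium with Matrigel added and more serum than in routine ESC culture. Both genotypes therefore went through the same change of medium and matrix, and each of the 6 groups held 2 libraries of poly-A selected mRNA. The knockout is 1 subclone, so an effect of losing Cidea and a property of that clone cannot be told apart. Changes of time, LIF, serum and matrix cannot be told apart either. Among the transcripts quantified in the files, 0 were annotated as miRNA, so mature let-7 itself was not measured.

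Cidea had 20 to 117 estimated counts in the 6 WT libraries and 0 in all 6 CIDEA KO libraries. Depth was 29.0 to 38.5 M estimated counts per library. The first CIDEA KO library at 24 h stood apart: it had 3 or more counts for 14443 genes against 16616 to 18362 in the other 11, and the replicate spread of its group was the widest (chi-square per degree of freedom 32.7, against 11.2 to 18.2). The 24 h results are therefore given with and without it where it matters. The 8 pluripotency markers summed to 4007 to 4532 TPM (a level scaled for transcript length and library total) at 0 h and to 2654 to 2861 TPM at 48 h. Pou5f1 was at a group mean of 1089 to 1681 TPM, whereas Nanog went from 285 to 74.4 TPM in WT and from 331 to 66.9 in CIDEA KO between 0 h and 48 h. Not every marker of the 8 fell with the sum. Utf1 went from 252 to 503 TPM in WT and from 274 to 472 in CIDEA KO over the same time. Sall4 was highest at 24 h in both genotypes (136 TPM in WT and 127 in CIDEA KO). The summed level of the 5 formative and primed markers (Fgf5, Otx2, Dnmt3b, Pou3f1 and Lef1) was 87.3 to 88.9 TPM in WT and 59.5 to 64.0 in CIDEA KO at 0 h, 381 to 404 and 302 to 318 at 24 h, and 718 in both WT libraries and 687 to 722 in CIDEA KO at 48 h. Markers of other cell types summed to less than the pluripotency markers in every library. At 0 h the neural list (143 to 167 TPM in WT, 150 to 162 in CIDEA KO) was above the formative and primed list. Per library the 8 endoderm markers summed to 10.2 to 33.9 TPM. Of these Foxa2 was at a mean of 0.55 TPM or less in every group, and Lama1 was at 21.5 in WT and 22.4 in CIDEA KO at 0 h. The 6 trophoblast markers summed to 4.74 to 14.7, with Eomes at a group mean of 3.28 to 9.15, highest at 48 h. The 5 mesoderm markers summed to 1.01 to 5.86. The 7 fibroblast markers summed to 7.78 to 25.5, with Thy1 at a group mean of 9.71 to 19.3 and Postn at 0 in all 12 libraries. The 5 neural markers summed to 56.9 to 167 TPM, most of it Tubb3, and were lowest at 48 h. The part of these shifts in the results below was not tested. In bulk RNA, fewer cells of a type and less of an RNA per cell cannot be told apart.

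The sequences by which let-7 could act on these genes are shown first, because the family shares one seed and the members carry unequal numbers of matches to it. Of 11 mature let-7 family sequences, 10 (miR-98 among them) share the same bases 2 to 8, and let-7j differs in them. The 2 miR-125 sequences share a seed of their own. The mature sequences below are from RefSeq (GRCm38.p6), 5′ to 3′, with bases 2 to 8, the seed, in capitals; let-7a-5p is from the Mirlet7a-1 locus (chr13:48538239-48538260, minus strand), let-7g-5p from Mirlet7g (chr9:106178846-106178867, plus strand), miR-98-5p from Mir98 (chrX:151913229-151913250, plus strand) and miR-125b-5p from Mir125b-1 (chr9:41581940-41581961, plus strand).
let-7a-5p: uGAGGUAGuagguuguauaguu
let-7g-5p: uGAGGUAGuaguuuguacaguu
miR-98-5p: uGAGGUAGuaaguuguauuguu
miR-125b-5p: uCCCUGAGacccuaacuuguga

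LIN28 proteins recognise the precursors rather than the mature miRNAs. Of 12 let-7 family hairpins in the RefSeq table, 11 had both arms annotated, and in 8 of these 11 the stretch between the arms held GGAG. The stretches below (with GGAG in capitals where present) are shown because they include both kinds: Mirlet7a-1 (hairpin chr13:48538179-48538272, minus strand) and Mirlet7g (chr9:106178840-106178927, plus strand) have the motif, and Mirlet7b (chr15:85707319-85707403, plus strand) does not. An absent match says only that these letters are not in this window.
Mirlet7a-1: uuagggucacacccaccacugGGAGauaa
Mirlet7g: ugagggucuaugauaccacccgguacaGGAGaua
Mirlet7b: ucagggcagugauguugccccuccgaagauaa

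All 7 genes lie on the minus strand of their chromosomes, and all 7 had at least 1 match to CTACCTC, the reverse complement of bases 2 to 8 of let-7, in the annotated 3′ untranslated region (UTR) of their main coding transcript (sense strand only, GENCODE M21 on GRCm38). The 7-base match occurred in 9.31% of the 3′ UTRs of 15771 tested genes, and 3 or more matches in 0.171%. Lin28b, Trim71, Hmga2 and Igf2bp1 had 4 matches each, a number reached by 10 of the 15771 genes, Lin28a had 2, and Igf2bp2 and Igf2bp3 had 1. Longer UTRs more often hold a match: among genes whose UTR was within 20% of the member's length, 23.7% had a match for the length of Lin28b (4445 bases), 30.8% for Trim71 (5512), 16.1% for Hmga2 (2977), 34.3% for Igf2bp1 (6337), 14.9% for Lin28a (2775), 12.2% for Igf2bp2 (1784) and 12.8% for Igf2bp3 (2119). A match to the miR-125 seed (CTCAGGG) was present once each in Lin28a, Lin28b, Trim71 and Igf2bp3 and absent from the other 3, against 13.97% of all these UTRs. Among genes of like UTR length the share with that match was 27.0% for Lin28a, 31.5% for Lin28b, 36.2% for Trim71 and 21.8% for Igf2bp3. The members were chosen as let-7 regulated genes, so the matches describe the choice and are not evidence of repression in these cells.

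**Figure D1:**
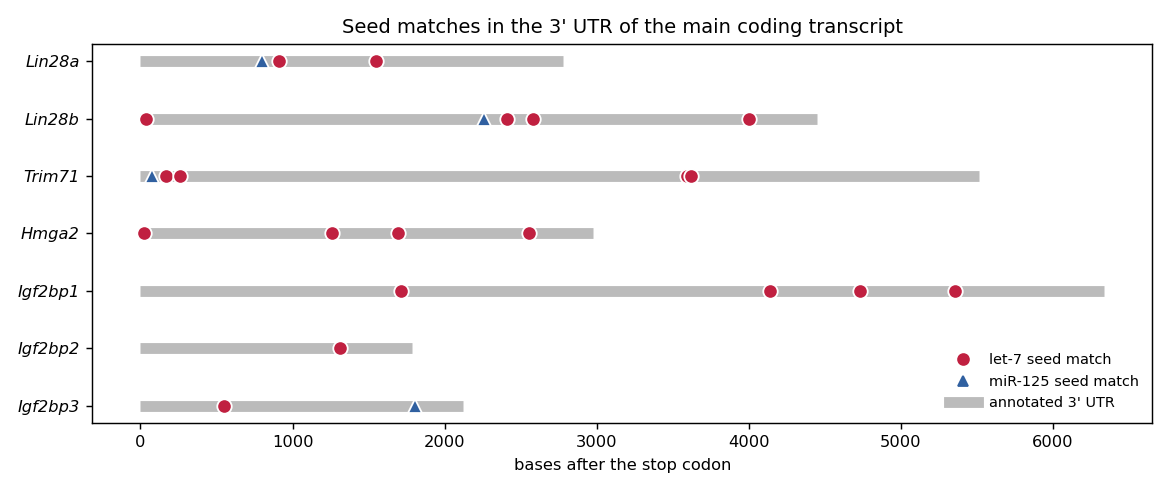
Positions of 7-base seed matches (red circles, let-7; blue triangles, miR-125) along the annotated 3′ UTR (grey bar, from the stop codon, in bases) of the main coding transcript of each gene. Lin28b, Trim71, Hmga2 and Igf2bp1 carry 4 let-7 matches each, Lin28a 2, Igf2bp2 and Igf2bp3 1, and the first match of Hmga2 and of Lin28b lies 21 and 36 bases after the stop codon.

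The sites nearest to the stop codon, a close pair in Trim71, and the miR-125 match of Lin28a are printed below with the match in capitals and the flanking bases in lower case, on the coding strand. They are at chr4:134005188-134005211 and chr4:134005300-134005323 (Lin28a), chr10:45381021-45381044 (Lin28b), chr9:114509046-114509069 and chr9:114509020-114509043 (Trim71, at UTR bases 3591 and 3617), chr10:120364223-120364246 (Hmga2), chr11:95961777-95961800 (Igf2bp1), chr16:22059472-22059495 (Igf2bp2) and chr6:49086786-49086809 (Igf2bp3).
Lin28a let-7 match: gcacagcctgttgaaCTACCTCat
Lin28a miR-125 match: aggtacatgagcaatCTCAGGGat
Lin28b let-7 match: acccgggcgggaagtCTACCTCat
Trim71 let-7 match, base 3591: tttagtatggattttCTACCTCaa
Trim71 let-7 match, base 3617: ttggcaaaaagttgtCTACCTCac
Hmga2 let-7 match: gccgacattcaatttCTACCTCag
Igf2bp1 let-7 match: gctgtgcgaagtaaaCTACCTCaa
Igf2bp2 let-7 match: acacacaaataaaagCTACCTCag
Igf2bp3 let-7 match: tgcatttttactcaaCTACCTCag

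Over the 48 h in both genotypes the 7 genes moved in different directions. Lin28a and Lin28b rose, Igf2bp3 rose less, Hmga2 and Igf2bp2 fell, and Trim71 and Igf2bp1 were higher at 24 h and back near their starting level at 48 h. Of the 7, 5 passed the test between 0 h and 48 h (3 higher and 2 lower; edgeR quasi-likelihood, adjusted p under 0.05, mean of the genotypes), where 36.1% of all 17424 genes tested did (17.9% higher and 18.1% lower). From 0 h to 24 h 5 passed (background 28.1%), and from 24 h to 48 h 6 passed (background 18.1%). These backgrounds include genes of low count. Where at least 10 counts were asked of every library, the share from 0 h to 48 h was larger (3078 higher and 3164 lower of 12548 genes). The median log2 change of the 7 from 0 h to 48 h was 0.12, beside 0.02 for all genes. The number of let-7 matches does not separate the directions, since the 4 genes with 4 matches include 1 that rose, 1 that fell and 2 that passed in neither direction by 48 h.

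**Figure D2:**
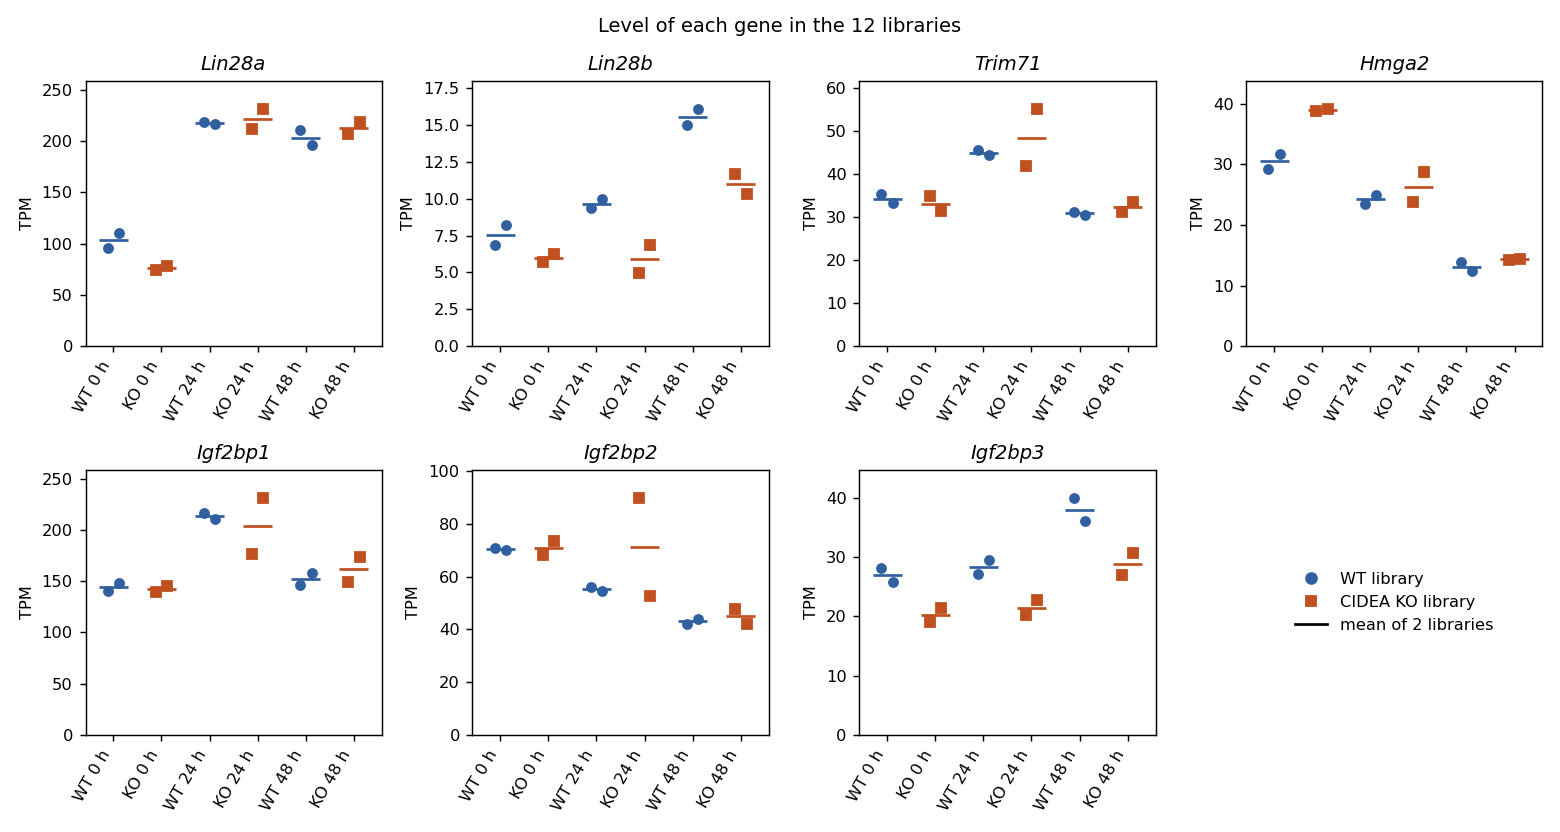
Level in TPM (linear axis from 0) of each of the 7 genes in the 12 libraries, by group; circles are WT libraries, squares CIDEA KO libraries, and lines the mean of the 2 libraries. All 8 spheroid libraries lie above all 4 ESC libraries for Lin28a, the WT libraries of Lin28b and Igf2bp3 lie above the CIDEA KO libraries at each time, and 1 CIDEA KO library at 24 h lies far above the others for Igf2bp2.

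Lin28a (chr4:134003330-134018841) encodes the LIN28 protein that is the more abundant in ESCs. Its level in WT was 96.1 and 110 TPM at 0 h, 219 and 217 at 24 h and 210 and 196 at 48 h. In CIDEA KO it was 74.5 and 77.9 TPM at 0 h, 212 and 231 at 24 h and 207 and 218 at 48 h. The 4 ESC libraries were all below the 8 spheroid libraries, and at 0 h the CIDEA KO pair was below the WT pair, whereas at 24 h and 48 h the ranges of the genotypes overlapped. Averaged over the genotypes Lin28a was 2.41-fold higher at 48 h than at 0 h (log2 1.27, SE 0.05, edgeR adjusted p = 3.868e-14), and the whole change stood by 24 h (log2 1.27, SE 0.05, adjusted p = 1.30e-13). Between 24 h and 48 h the log2 difference was -0.01 (SE 0.05, adjusted p = 0.963).

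The values that led to the choice of Lin28a are a description. The CIDEA KO minus WT difference on the log2 scale was -0.53 at 0 h (SE 0.07), -0.02 at 24 h (SE 0.06) and 0.10 at 48 h (SE 0.07). The summed level of the formative and primed markers was also lower in CIDEA KO at 0 h, but not every marker was. Otx2 was at a mean of 45.1 TPM in WT and 23.1 in CIDEA KO, and Lef1 at 2.73 and 0.446. Dnmt3b was at 38.9 and 36.1, Fgf5 at 0.336 and 0.291, and Pou3f1 was higher in CIDEA KO (1.05 and 1.75). The sum was lower in CIDEA KO at 24 h too (302 to 318 TPM against 381 to 404). The part of these markers in the Lin28a difference was not tested. The rise of Lin28a from 0 h to 48 h was 0.95 in WT and 1.58 in CIDEA KO. In order of mean level the groups ran from CIDEA KO at 24 h (221 TPM), WT at 24 h (218), CIDEA KO at 48 h (212) and WT at 48 h (203) to WT at 0 h (103) and CIDEA KO at 0 h (76.2), and the 4 spheroid groups overlapped with their neighbours in that order.

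Lin28b (chr10:45376620-45486395), the paralogue of Lin28a, was much less abundant per length. In WT its level was 6.85 and 8.24 TPM at 0 h, 9.36 and 9.98 at 24 h and 15.0 and 16.1 at 48 h. In CIDEA KO it was 5.69 and 6.27 TPM at 0 h, 4.94 and 6.85 at 24 h and 11.7 and 10.3 at 48 h. Both genotypes were highest at 48 h, and at each time both WT libraries were above both CIDEA KO libraries. The CIDEA KO ranges of 0 h and 24 h overlapped. Lin28b was 1.99-fold higher at 48 h than at 0 h (log2 0.99, SE 0.11, adjusted p = 3.93e-07), in WT (log2 1.05, adjusted p = 3.25e-05) as in CIDEA KO (log2 0.94, adjusted p = 0.000106).

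Unlike Lin28a, which had reached its spheroid level by 24 h, Lin28b changed between 24 h and 48 h (log2 0.86, SE 0.11, adjusted p = 8.83e-06), and not detectably between 0 h and 24 h (log2 0.14, SE 0.11, adjusted p = 0.411). Without the CIDEA KO library that stood apart these were 0.77 (adjusted p = 3.45e-06) and 0.22 (adjusted p = 0.140). The TPM ratio of Lin28a to Lin28b was therefore highest at 24 h: it was 13.4 and 14.03 in the WT libraries at 0 h, 21.7 and 23.4 at 24 h and 12.2 and 13.995 at 48 h. In CIDEA KO the ratio was 12.4 and 13.1 at 0 h, 33.7 and 42.8 at 24 h and 17.7 and 21.1 at 48 h. The 42.8 came from the library that stood apart. In both spheroid stages the CIDEA KO ratios were above those of both WT libraries of the same time. This is a description, since both genes were selected through genotype differences.

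The CIDEA KO minus WT difference of Lin28b, again a description, was -0.36 at 0 h (SE 0.15), -0.69 at 24 h (SE 0.15; -0.52 without the library that stood apart) and -0.46 at 48 h (SE 0.15) on the log2 scale. At 0 h it was -0.15 when the second WT library was left out. Its neighbours were lower as well. Of the 17 other tested genes within 2 Mb of Lin28b, 16 had a lower mean over the times in CIDEA KO, with a median log2 difference of -0.66, where 50.5% of all genes tested were lower. Among them were Prep, a prolyl endopeptidase, with -0.61, Hace1, a ubiquitin ligase, with -0.56, and Prdm1, a transcriptional repressor of germ-cell specification, with -0.98, and the mean for Lin28b itself was -0.50. The stretch was part of the reason for choosing Lin28b, so these values are not independent of the choice, and whether the genotype or the clone carries the difference cannot be told apart.

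Trim71 (chr9:114507133-114564369), also called LIN-41, encodes a let-7 repressed RNA-binding protein of the early embryo that silences bound mRNAs. Its level in WT was 35.4 and 33.2 TPM at 0 h, 45.5 and 44.5 at 24 h and 31.3 and 30.5 at 48 h. The CIDEA KO libraries had 34.9 and 31.4 TPM at 0 h, 42.0 and 55.1 at 24 h and 31.2 and 33.4 at 48 h. All 4 libraries at 24 h were above the 8 others, and the genotypes overlapped at every time. Trim71 rose by 24 h (log2 0.42, SE 0.06, adjusted p = 3.94e-05) and fell by 0.50 on the log2 scale from 24 h to 48 h (SE 0.06, adjusted p = 1.00e-05), which left -0.08 over the whole course (SE 0.06, adjusted p = 0.373).

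Igf2bp1 (chr11:95957163-96005940) encodes an mRNA-binding protein that stabilises its targets. Summed over its transcripts, short processed ones included, it was the most abundant of the Igf2bp genes in TPM. In WT it was at 140 and 148 TPM at 0 h, 216 and 210 at 24 h and 146 and 158 at 48 h. CIDEA KO had 139 and 145 TPM at 0 h, 176 and 231 at 24 h and 149 and 173 at 48 h. As with Trim71, all 4 libraries at 24 h were above the 8 others, and the genotypes overlapped at every time in these sums. The coding Igf2bp1-201 took 93.7% to 96.9% of the counts but a smaller part of the TPM. Alone it was at 69.8 and 71.9 TPM in WT and 81.5 and 74.7 in CIDEA KO at 0 h. At 24 h it was at 107 and 101 against 111 and 131, and at 48 h at 77.6 and 70.0 against 82.5 and 91.3. For this transcript both CIDEA KO libraries were above both WT libraries at each time. Igf2bp1 rose by 24 h (log2 0.54, SE 0.05, adjusted p = 1.45e-07) and fell by 0.42 from 24 h to 48 h (SE 0.05, adjusted p = 8.76e-06). The remaining difference at 48 h, 0.12 (SE 0.05, adjusted p = 0.0735), did not pass, and it passed in 7 of 21 alternative analyses. Over the 12 libraries the log2 CPM (counts scaled to library size) of Trim71 and Igf2bp1 had a Pearson r of 0.88, a description over libraries that share time and genotype.

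Hmga2 (chr10:120361275-120476469) encodes an architectural chromatin protein of fetal and stem cells and is among the best known let-7 targets. In WT it was at 29.3 and 31.8 TPM at 0 h, 23.5 and 25.03 at 24 h and 13.9 and 12.3 at 48 h. In CIDEA KO it was at 38.8 and 39.1 TPM at 0 h, 23.7 and 28.7 at 24 h and 14.3 and 14.4 at 48 h. The 3 times did not overlap, with every ESC library above every spheroid library and every 24 h library above every 48 h library. Hmga2 was 2.49-fold lower at 48 h than at 0 h: it fell by 1.32 on the log2 scale (SE 0.08, adjusted p = 3.39e-11), first by 0.50 to 24 h (SE 0.07, adjusted p = 3.47e-05) and then by 0.82 to 48 h (SE 0.08, adjusted p = 1.60e-07). The fall passed in WT (log2 -1.24, adjusted p = 3.60e-08) and in CIDEA KO (log2 -1.39, adjusted p = 5.65e-09).

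Igf2bp2 (chr16:22059009-22163299) encodes the family member known for a role in metabolism and adult tissue. In WT it was at 70.8 and 70.0 TPM at 0 h, 56.0 and 54.6 at 24 h and 42.2 and 44.0 at 48 h. In the knockout the values were 68.4 and 73.7 TPM at 0 h, 89.8 and 52.7 at 24 h and 47.9 and 42.1 at 48 h. Apart from the 89.8 TPM of the CIDEA KO library that stood apart, the times did not overlap and the level fell at each step. On counts Igf2bp2 was 1.64-fold lower at 48 h than at 0 h (it fell by 0.71, SE 0.06, adjusted p = 2.32e-08). It fell by 0.52 from 0 h to 24 h (SE 0.06, adjusted p = 2.86e-06). That call was lost where transcript length entered (log2 -0.22, adjusted p = 0.290, with average transcript lengths as offsets). The change from 24 h to 48 h (log2 -0.19, SE 0.06, adjusted p = 0.0424) was lost in 9 of 21 alternative analyses, including those without either WT 24 h library, either WT 48 h library, or the second CIDEA KO library of 24 h or 48 h (adjusted p = 0.0700 to 0.145 without a WT library).

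The high TPM value came with an unusual assignment of transcripts. In that library 88.1% of the Igf2bp2 counts were assigned to Igf2bp2-207, a retained-intron transcript, against 6.62% to 36.1% in the other 11. The short processed transcript Igf2bp2-204 (487 bases) received 8.64% of the counts and 39.2 TPM there, against at most 1.18 TPM elsewhere, and the coding transcript Igf2bp2-201 received 0.746% against 42.5% to 59.4%. The summed counts of the gene were not out of line, with 3296 in that library and 3696 in the other CIDEA KO library at 24 h. For the other 6 genes a single coding transcript took 93.6% or more of the counts in every library. In TPM the short processed transcripts of Igf2bp1 weighed more than in counts.

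Igf2bp3 (chr6:49085223-49214957) encodes the oncofetal member of the family that is largely silent in adult tissue. In WT it was at 28.1 and 25.8 TPM at 0 h, 27.1 and 29.5 at 24 h and 39.9 and 36.0 at 48 h. The knockout had 18.97 and 21.4 TPM at 0 h, 20.2 and 22.7 at 24 h and 27.0 and 30.7 at 48 h. In each genotype the 0 h and 24 h ranges overlapped and both 48 h libraries were higher, and at each time both CIDEA KO libraries were below both WT libraries. Igf2bp3 was 1.46-fold higher at 48 h than at 0 h (log2 0.54, SE 0.07, adjusted p = 2.34e-06). The change passed from 24 h to 48 h (log2 0.40, SE 0.07, adjusted p = 0.000221) and not from 0 h to 24 h (log2 0.14, SE 0.07, adjusted p = 0.142). Its course was closest to that of Lin28b among the members (Pearson r 0.93 over the 12 libraries, as a description), and the 3 Igf2bp genes thus had 3 different courses, with a fall, a rise and a peak at 24 h.

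**Figure D3:**
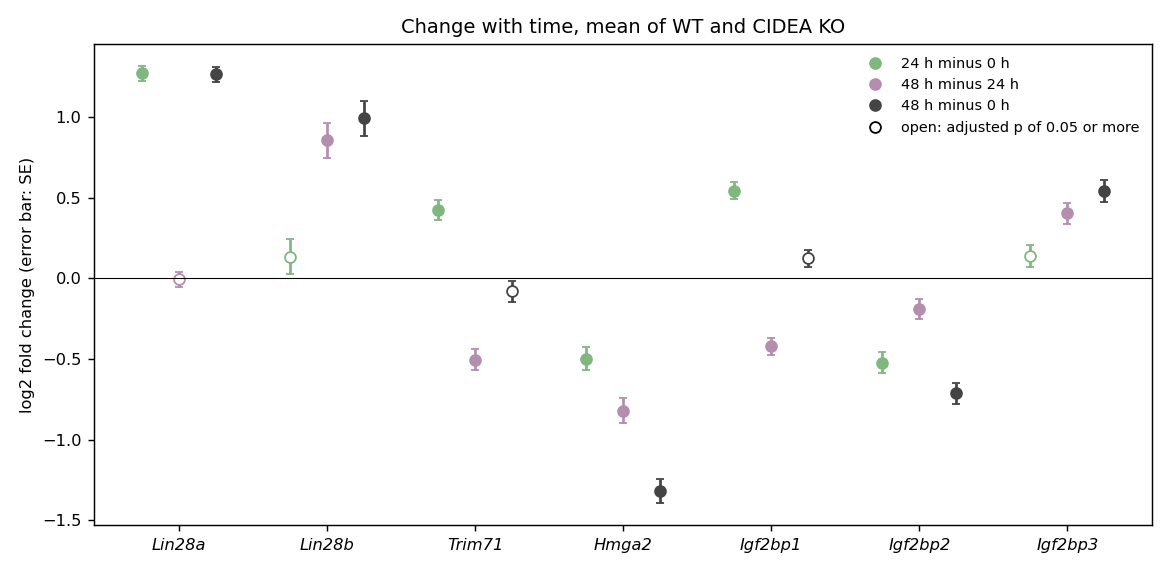
Log2 fold change (vertical axis, with its standard error) of each gene between times, averaged over WT and CIDEA KO, from the edgeR fit; filled points have an adjusted p under 0.05. Lin28a changes by 1.27 to 24 h and by -0.01 after it, Lin28b by 0.14 and then 0.86, and Trim71 and Igf2bp1 rise and then fall.

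Within each genotype 4 of the 6 genes tested passed from 0 h to 48 h, Lin28b and Igf2bp3 upwards and Hmga2 and Igf2bp2 downwards, against backgrounds of 23.6% of all genes in WT and 25.0% in CIDEA KO. Igf2bp3 rose by log2 0.43 in WT (adjusted p = 0.00237) and 0.66 in CIDEA KO (adjusted p = 2.89e-05), and Igf2bp2 fell by 0.66 in WT (adjusted p = 1.48e-05) and by 0.77 in CIDEA KO (adjusted p = 1.85e-06). Trim71 and Igf2bp1 passed in neither, with an adjusted p of 0.0508 for Igf2bp1 in CIDEA KO.

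At single times only Igf2bp3 passed between the genotypes among the 5 members that could be tested. It was lower in CIDEA KO by 0.51 on the log2 scale at 0 h (SE 0.10, edgeR adjusted p = 0.00754), so 1 of 5 passed where 1.26% of all genes did, and by 0.39 at 24 h (SE 0.10, adjusted p = 0.0429), again 1 of 5 against a background of 1.46%. At 48 h the difference was -0.28 (SE 0.10, adjusted p = 0.325), and 0 of 5 passed against a background of 0.671% (2 of 5 had an unadjusted p under 0.05 in edgeR, as did 7.74% of all genes, and DESeq2 called 0). The calls at single times did not hold in every alternative. That at 0 h was lost with transcript-length offsets (adjusted p = 0.264), on TPM, and without the second WT library (adjusted p = 0.104) or either CIDEA KO library (adjusted p = 0.152 and 0.0854) of 0 h. That at 24 h was lost in 11 of 21 alternatives, among them the one without the CIDEA KO library that stood apart (log2 -0.35, adjusted p = 0.169) and those without either WT library of 24 h (adjusted p = 0.240 and 0.218). Averaged over the 3 times, a comparison added after the values had been seen, Igf2bp3 was lower by 0.39 (SE 0.06, adjusted p = 0.000152), and this call held in all 21 alternatives (log2 -0.42 to -0.37, adjusted p at most 0.0496).

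The other 4 genes had smaller differences. Hmga2 was at log2 0.31 above WT at 0 h (SE 0.10, adjusted p = 0.238), 0.09 at 24 h and 0.16 at 48 h, without overlap of the libraries at 0 h and 48 h. Igf2bp1 was at 0.09, 0.16 and 0.25 above WT on counts at the 3 times (edgeR adjusted p = 0.833, 0.371 and 0.220). In TPM its coding transcript alone was higher in CIDEA KO at each time, without overlap of the libraries. Averaged over the times the Igf2bp1 difference of 0.16 passed on counts (SE 0.04, edgeR adjusted p = 0.0287, with 2 of the 5 genes passing against a background of 5.03%). It was -0.01 with transcript-length offsets and 0.00 on TPM summed over all its transcripts, short processed ones included. Its direction in these sums thus depended on how transcript length was treated. That call was also lost in 6 of the 12 fits with 1 library left out, those without the first WT library of 0 h, either WT library of 24 h, the second WT library of 48 h, the first CIDEA KO library of 0 h or the second CIDEA KO library of 48 h (adjusted p = 0.0503 to 0.0996). Igf2bp2 was likewise at -0.23 at 24 h on counts (adjusted p = 0.290) and at 0.33 with length offsets. Trim71 differed from WT by -0.09, 0.09 and 0.09. Without the CIDEA KO library that stood apart the 24 h differences were 0.24 for Trim71, 0.19 for Hmga2, 0.26 for Igf2bp1 and -0.14 for Igf2bp2, and none of the 4 passed. Over the times Hmga2 was at 0.19 (adjusted p = 0.0887), and at 0.22 (adjusted p = 0.0240) without that library.

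None of the 5 genes had a genotype difference that changed with time by the test of that change itself, 0 of 5 from 0 h to 24 h and 0 of 5 from 0 h to 48 h, with 0 of 5 at an unadjusted p under 0.05 in each (5.91% and 5.76% of all genes) and 0 called by DESeq2. The background is low here, at 0.0115% and 0.0402% of all genes. The pattern of Lin28a, a difference at 0 h that was no longer seen at 24 h, was thus not detected for its partners at this number of libraries. For Igf2bp3 the change of the difference from 0 h to 48 h was 0.23 (SE 0.14, adjusted p = 0.924).

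**Figure D4:**
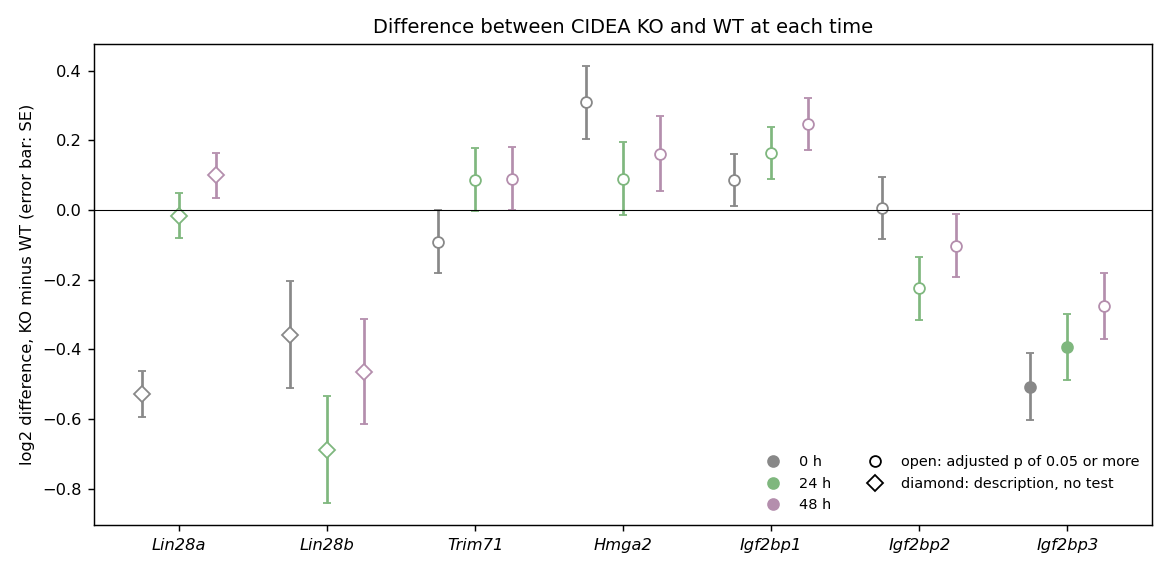
CIDEA KO minus WT difference (log2, with its standard error) of each gene at 0 h, 24 h and 48 h; diamonds are the 2 genes chosen for such differences, shown without a test, and filled points have an adjusted p under 0.05. Lin28a is at -0.53 at 0 h and near 0 in spheroids, Lin28b and Igf2bp3 are below 0 at all 3 times, and Hmga2 and Igf2bp1 lie above 0.

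The wider pathway was read from lists of genes. Of 20 genes that process, load, tail or degrade miRNAs, 5 rose and 4 fell from 0 h to 48 h and 11 did not pass. The median log2 change was 0.08 beside 0.02 for all genes, and 45% passed beside 36.1% of all genes, low-count genes included. Those that rose were Hnrnpa1 (0.71), an RNA-binding protein that also binds let-7 precursors, Prkra (0.47), a DICER partner, Xpo5 (0.46), the exporter of miRNA precursors, Tut4 (0.28), the transferase that works with LIN28A, and Drosha (0.21), the nuclear processing enzyme. The falls were in Tent2 (-0.44), a poly(A) polymerase, Tut7 (-0.36), the second let-7 uridylyl transferase, and the helicases Ddx5 (-0.13) and Ddx17 (-0.12). Dicer1 (0.09, adjusted p = 0.235) and Dis3l2 (-0.28, adjusted p = 0.105) did not pass. Between the genotypes 0 of the 20 passed at 0 h, 24 h or 48 h in edgeR, against backgrounds of 1.26%, 1.46% and 0.671%.

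Of 23 other known let-7 targets, 11 rose and 4 fell from 0 h to 48 h and 8 did not pass, with a median log2 change of 0.24. This share of genes passing, 65.2%, stands beside 36.1% of all genes, low-count genes included. The largest rises were in Ccnd2 (2.83, SE 0.21, adjusted p = 1.98e-09), a D-type cyclin, Mycn (1.76, SE 0.06, adjusted p = 1.41e-14), a growth-promoting transcription factor, Nr6a1 (0.94), a nuclear receptor of post-implantation epiblast, and E2f5 (0.67), a cell cycle regulator. Nr6a1 has 8 let-7 matches in its 3′ UTR, the most of any of the 15771 genes. The falls were in E2f2 (-1.27), an activator of S phase genes, Cdk6 (-1.16), a G1 kinase, Igdcc3 (-1.08), a membrane protein of the immunoglobulin superfamily, and Arid3a (-0.78), a DNA-binding factor. Of the 23, 16 have at least 1 let-7 match in the 3′ UTR considered here, and Ccnd2, Mycn and Cdk6 have none of this 7-base form.

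Between the genotypes few of these targets passed. At 0 h Ccnd2 was lower in CIDEA KO (log2 -2.25, SE 0.32, adjusted p = 0.000673), with 1.40 and 0.840 TPM in WT and 0.549 and 0.153 TPM in CIDEA KO. At 24 h Bach1 (-0.77, adjusted p = 0.00705), a haem-regulated repressor, and Irs2 (-0.82, adjusted p = 0.0364), an insulin signalling adaptor, were lower, and at 48 h Ccnd1 (0.44, adjusted p = 0.00953) was higher. The calls held in 17 of 21 alternatives for Ccnd2, 16 for Bach1 and Ccnd1 and 14 for Irs2. These are 1 of 23, 2 of 23 and 1 of 23 genes at the 3 times, or 4.35%, 8.7% and 4.35% beside 1.26%, 1.46% and 0.671% of all genes.

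A further list of 6 genes held transcripts known to be bound by the IGF2BPs or LIN28 or repressed by TRIM71, and Igf2r for its link to IGF2. Of these 5 were tested, since H19 had no value among the summed genes. From 0 h to 48 h 40% of them passed, beside 36.1% of all genes. In each of the 2 steps 80% passed. To 24 h 1 rose and 3 fell (background 28.1%), and from 24 h to 48 h 3 rose and 1 fell (background 18.1%). From 0 h to 48 h Egr1, an immediate early factor, was lower (log2 -4.25, SE 0.35, adjusted p = 7.43e-05), and Igf2r, the receptor that clears IGF2, was lower (-0.59, SE 0.08, adjusted p = 6.55e-06), whereas Cdkn1a (-0.19), Igf2 (-0.30) and Actb (0.05) did not pass. Cdkn1a, the p21 cell cycle inhibitor that TRIM71 is known to repress, fell by 0.62 to 24 h (SE 0.10, adjusted p = 5.34e-05) and rose by 0.43 from 24 h to 48 h (SE 0.10, adjusted p = 0.00344). It was higher in CIDEA KO at 24 h (0.56, SE 0.14, adjusted p = 0.0459), a call that held in 7 of 21 alternatives. A level lowest at 24 h was not particular to Cdkn1a. Igf2r, listed for its link to IGF2, was lowest then too (13.8 and 13.6 TPM in WT, 9.54 and 13.4 in CIDEA KO), and so was Egr1. The part of Trim71 in these courses was not tested.

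**Figure D5:**
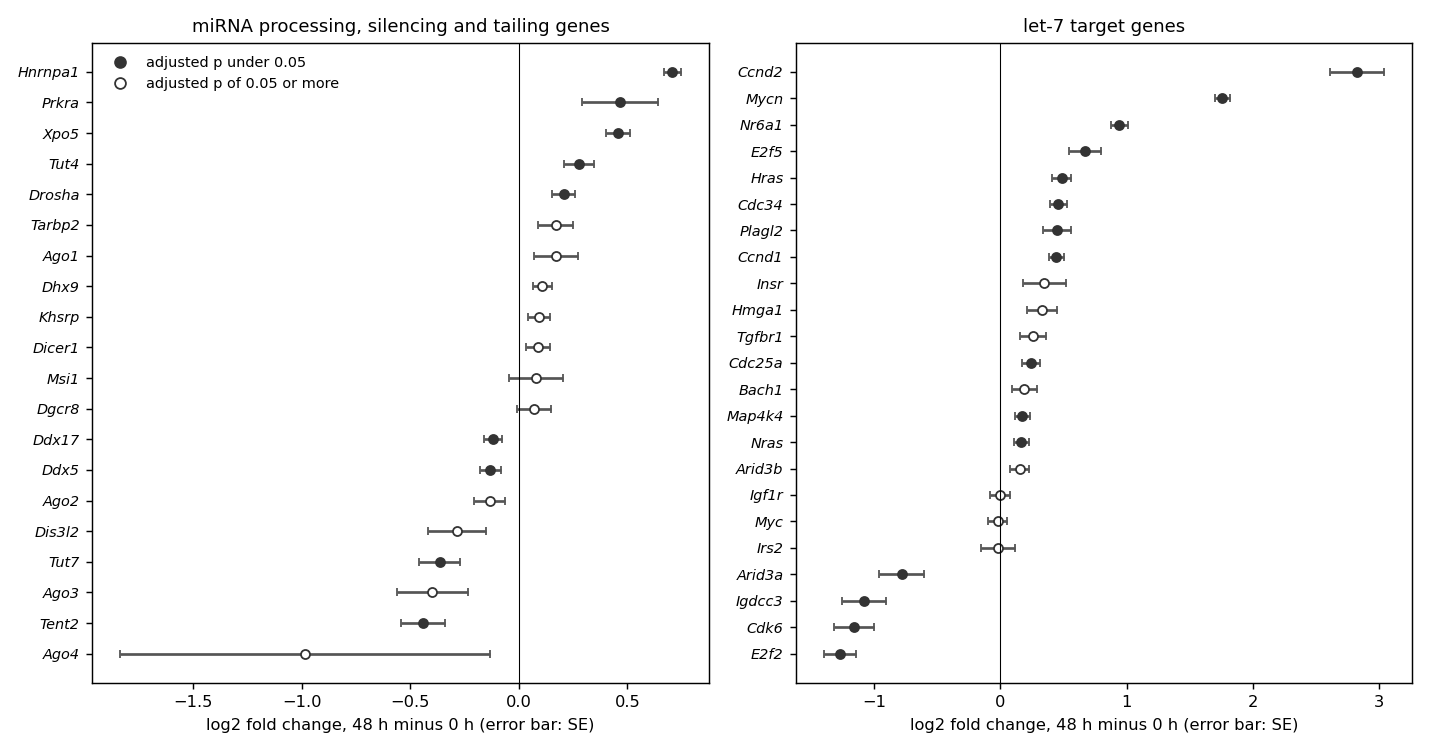
Log2 fold change from 0 h to 48 h (horizontal axis, mean of the genotypes, with its standard error) of 20 miRNA processing, silencing and tailing genes and 23 let-7 targets; filled points have an adjusted p under 0.05. In the first list 5 rose and 4 fell, in the second 11 rose and 4 fell, from Ccnd2 at 2.83 to E2f2 at -1.27.

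The genes whose course over the 12 libraries was most like that of Lin28a, among 12278 genes of at least moderate level, were Grhl2 (Pearson r 0.995 on log2 CPM), an epithelial transcription factor, Gpd2 (0.993), a mitochondrial glycerol phosphate dehydrogenase, Col18a1 (0.987), a basement membrane collagen, Enpp3 (0.987), an ectonucleotidase, and Cgnl1 (0.982), a junction protein. Grhl2 had group means of 6.93 TPM in WT and 2.97 TPM in CIDEA KO at 0 h and 36.3 to 41.6 TPM in the 4 spheroid groups. Its order of genotypes at 0 h was that of Lin28a. The 0 h libraries entered the correlation by which Grhl2 was found, so this is not a separate likeness. The genes most like Lin28b were Sbds (0.979), a ribosome maturation factor, Utp14a (0.971), a ribosome biogenesis factor, Parp12 (0.970), Mid1ip1 (0.962) and Gbp2 (0.960), an interferon-induced GTPase. Sbds had group means of 37.9, 46.8 and 65.2 TPM in WT at 0 h, 24 h and 48 h and of 33.3, 41.2 and 52.5 TPM in CIDEA KO. These likenesses rest on 12 libraries that share their groups and are given as a description.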

How the data were processed

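The deposited values were, per the file headers, estimated counts and TPM per transcript from kallisto 0.43.1, made by the authors from paired-end reads of a stranded poly-A mRNA kit (trimmed with Trimmomatic 0.33; mouse reference, GRCm38 in the labels). Whether strand was used in counting is not given in the sources used here. Transcripts were matched to GENCODE M21 (113580 of 115270) and summed to genes; unmatched transcripts held 0.659% to 0.709% of the counts. The expected counts were rounded and tested with the edgeR 4.0.16 quasi-likelihood test (R 4.3.3; TMM, filterByExpr, robust; 1 mean per group over all 12 libraries), with Benjamini-Hochberg adjustment over 17424 genes and a threshold of 0.05. The study's methods name no test for these data. The 2 libraries of a group are described as independent samples. The p-values rest on a spread within groups, pooled for each gene over all 12 libraries and moderated across genes. The wide CIDEA KO pair of 24 h therefore enters the tests at 0 h and 48 h too. A count of 0 allows up to 3 counts (0.0779 to 0.103 CPM), and counting limits cover counting error only. The members and lists were chosen with earlier results of these data known. Named genes were the members, the 4 largest called rises and falls of each list to 48 h and list genes called between genotypes. So were the 5 genes most correlated with each Lin28 gene (log2 CPM, prior count 2). Drosha, Dicer1, Dis3l2, Igf2, Actb, Prep, Hace1, Prdm1, Atg5, Popdc3 and the single marker genes were named after their values were seen. Alternatives were DESeq2 1.42.0, its size factors, other filters, length offsets, limma 3.58.1 on log2(TPM + 1) and log2(TPM + 0.1), a replicate block, each library left out, and the compared groups alone. Same-numbered libraries did not deviate together (correlations -0.05 to 0.05). Sequences are from RefSeq and GENCODE; a comparison of the proteins was not made here. 1 gene of the let-7 target list is not reported here and was left out of its counts.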

Additional observations from a re-analysis of the deposited data

How the results depend on the processing

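Of 28 member differences that passed, 22 passed under all 21 alternatives. Limits: 2 libraries per group, 1 knockout clone, no mature let-7, transcript assignment for Igf2bp2, and short processed transcripts in the TPM of Igf2bp1. Counts of members passing from 0 h to 48 h, 0 h to 24 h and 24 h to 48 h stayed at 5 to 6, 4 to 5 and 5 to 6 of 7. Between genotypes 0 rather than 1 of 5 passed at 0 h and at 24 h with length offsets, on log2(TPM + 1) and on log2(TPM + 0.1), and at 24 h also with only the groups compared; leaving out 1 library gave 0 to 1 at each. For the mean over times 1 rather than 2 passed with length offsets and both TPM scales, and 1 to 3 with 1 library left out. The cause was not tested. The replicate numbers gave no pairing; the replicate block changed no count of members (1 of 5 at 0 h and at 24 h). Over all genes the KO against WT calls were 220, 255 and 117 at 0 h, 24 h and 48 h and ranged over the alternatives from 18 to 436, from 13 to 2327 (the highest without the second CIDEA KO library of 24 h) and from 19 to 303, so the backgrounds are as uncertain.

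Directions turned for differences near 0 and, where transcript length entered (length offsets or TPM), for genotype differences of Igf2bp1 and Igf2bp2, among them the difference of Igf2bp1 over the times that passed on counts (0.16). Lin28a from 24 h to 48 h: 0.0014 with DESeq2, 0.0015 with its size factors, 0.0030 with at least 10 counts in every library. Igf2bp1, KO minus WT, with length offsets, log2(TPM + 1) and log2(TPM + 0.1): -0.050, -0.0194 and -0.0195 at 0 h, -0.097, -0.0779 and -0.0783 at 24 h, -0.0094, -0.0049 and -0.0050 over the times. Igf2bp2 in the same order: 0.33, 0.31 and 0.31 at 24 h, 0.096, 0.0566 and 0.0577 at 48 h, 0.14, 0.13 and 0.13 over the times; at 0 h -0.0028 with DESeq2 and with its size factors, -0.0058 with at least 10 counts and -0.0175 with length offsets. With 1 library left out the log2 difference ranged from -0.065 to 0.089 for Igf2bp2 at 0 h, from -0.086 to 0.24 for Trim71 and -0.022 to 0.19 for Hmga2 at 24 h, and from -0.031 to 0.082 for Trim71 over the times; at 24 h the negative values were without the second CIDEA KO library.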
